A study of Danio rerio with 2 samples.

Results

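Vessel barrier, fenestration and vascular endothelial growth factor (VEGF) genes were examined in RNA from the adult zebrafish forebrain choroid plexus. The 10 genes were chosen by name, with no measured value in the rule but with earlier results of these data known. All 10 were found by gene name among the 25432 genes of the deposited files. They comprise 5 barrier genes (cldn5a, cldn5b, mfsd2aa, slc2a1a and slc2a1b), 2 fenestration genes (plvapa and plvapb), the VEGF receptor gene kdrl and 2 VEGF ligand genes (vegfaa and vegfab). The series holds 1 group of 2 libraries of whole tissue. Each library was a pool of 12 to 19 dissected forebrain choroid plexuses from untreated fish aged 6 to 8 months. The labels give the fish as AB and nacre (mitfa-/-), a line without melanophores, and the pineal gland was removed at dissection. RNA was purified with glycogen or on spin columns. The labels do not say which fish or which purification belongs to which pool, and the titles call the libraries batch 1 and batch 2, here replicates 1 and 2. The replicate and the batch therefore cannot be told apart.

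Capillaries of most of the brain are sealed by tight junctions and transport little by vesicles, which makes the blood-brain barrier. In mammals, capillaries of the choroid plexus are instead pierced by fenestrae, pores spanned by diaphragms of the plasmalemma vesicle associated protein PLVAP, and the barrier lies in the overlying epithelium. In mice, VEGF from that epithelium acts on the VEGF receptor of the endothelium and maintains the fenestrae. Zebrafish carry many of these genes as duplicated copies, marked a and b.

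Replicate 1 held 11712489 expected counts and replicate 2 held 13446356. Levels are given in TPM, a share of all transcripts that is corrected for transcript length and can be compared between genes. Markers of the labelled tissue were present. Of 12 choroid plexus epithelium genes, 11 stood at 10 TPM or more in both libraries, against 26.3% of all genes. The exception was ttr, with 1 and 3 expected counts, and whether it marks this epithelium in zebrafish was not checked. This list, like the others below, was chosen with earlier results of these data known, so the share is no evidence about the tissue. The libraries differed in the RNA of other tissues. All 10 pineal markers were at least 2-fold higher in replicate 1, against 5.22% of all genes with a mean of at least 1 TPM. The pineal markers summed to 3098 TPM in replicate 1 and 46.4 TPM in replicate 2. Of 7 neuron markers with a mean of at least 1 TPM, 2 were at least 2-fold higher in replicate 1 and 1 lay toward replicate 2. Folds are on the TPM + 1 scale, less the median gene, which shrinks them for low genes. So gad1b at 2.03 and 0.50 TPM, snap25a at 1.89 and 0.45 and elavl4 at 1.83 and 0.34 were not counted. They were named after their values were seen. The 10 neuron markers summed to 150.2 and 91.8 TPM. Of 7 red cell markers, 2 were at least 2-fold higher in replicate 2, against 3.56% of all genes with a mean of at least 1 TPM. The red cell markers summed to 1764 and 5923 TPM. No marker of these 3 lists was at 0 in either library.

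All 10 genes were detected, taking a level of at least 1 TPM in both libraries as detection, a level that 54.6% of all genes reached. Of the 10, 6 stood at 10 TPM or more in both libraries, against 26.3% of all genes, and none reached 100 TPM in both, against 3.12%. The median of their mean levels was 24.5 TPM, against 2.53 TPM over all genes and 9.85 TPM over the genes with a mean of at least 1 TPM. The members were picked as known vessel genes, so these shares describe them and are no evidence about the tissue. In whole tissue, fewer cells of a type and less RNA per cell cannot be told apart.

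**Figure D1:**
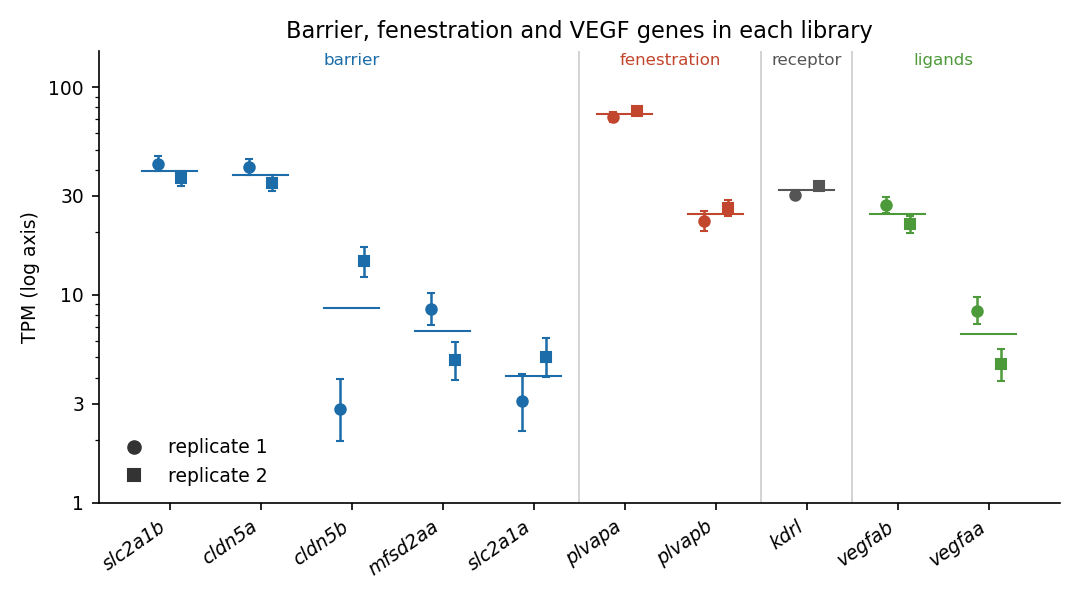
Level of each gene in replicate 1 (circles) and replicate 2 (squares), in TPM on a log axis, grouped by role. Short lines are means of both libraries and bars are 95% Poisson intervals of the counts, which cover counting error only. The fenestration gene plvapa is the highest in both libraries, and cldn5b has the widest gap between them.

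The fenestration gene plvapa was the most abundant of the 10. It encodes one copy of PLVAP, the diaphragm protein of fenestrae. The gene plvapa (ENSDARG00000076972) stood at 71.9 TPM in replicate 1 (95% Poisson interval 68.2 to 75.8, from 1370 counts) and at 76.95 TPM in replicate 2 (73.5 to 80.6, from 1835 counts). Its mean was 74.4 ± 3.56 TPM (SD, n = 2), at rank 1212 of all genes, with 95.2% of genes below it. In TPM the libraries lay close together, and their intervals overlapped. In counts scaled to library size, plvapa was 1.17 times as high in replicate 2 (95% exact interval 1.09 to 1.25). The other copy, plvapb (ENSDARG00000045003), was at 22.8 and 26.3 TPM in replicates 1 and 2, with 332 and 505 counts. It stood lower than plvapa in both libraries, and its mean was 24.55 ± 2.50 TPM.

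Among the barrier genes, slc2a1b and cldn5a made up most of the level. The gene slc2a1b (ENSDARG00000007412) encodes a glucose carrier of the GLUT1 type, through which glucose enters the brain across the vessel wall. It was at 42.95 and 36.4 TPM in replicates 1 and 2, from 594 and 634 counts. The claudin gene cldn5a (ENSDARG00000043716) was at 41.2 and 34.5 TPM, from 477 and 498 counts. Claudin 5 is a tight junction strand protein of brain endothelium in mammals, and zebrafish cldn5a also acts in the lining of the embryonic brain ventricles. The GLUT1 protein is likewise found in the choroid plexus epithelium of mammals, so neither gene is a marker of vessels alone. Both were close to the median gene in their ratio between the libraries, and the 2 genes together gave 84.2 and 70.9 of the 98.7 and 95.3 TPM summed over the 5 barrier genes.

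The other barrier genes were low. The claudin copy cldn5b (ENSDARG00000014059) was at 2.83 TPM in replicate 1 (interval 1.97 to 3.94, from 35 counts) and at 14.5 TPM in replicate 2 (12.2 to 17.1, from 141 counts). These intervals lay far apart, and the mean of 8.67 ± 8.26 TPM has a spread about as large as itself. The gene mfsd2aa (ENSDARG00000030630), a copy of the lysophospholipid carrier that in mice keeps vesicle transport low in barrier endothelium, was at 8.59 TPM (7.17 to 10.2, from 129 counts) and 4.85 TPM (3.90 to 5.95, from 91 counts). It was the higher in replicate 1, unlike cldn5b. The second GLUT1 copy, slc2a1a (ENSDARG00000001437), was at 3.07 TPM (2.21 to 4.15, from 42 counts) and 5.04 TPM (4.03 to 6.22, from 86 counts). It was the least abundant of the 10 by its mean, at 4.06 ± 1.39 TPM and rank 11186.

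The receptor gene kdrl (ENSDARG00000105215), an endothelial VEGF receptor, was at 30.4 and 33.6 TPM, from 1503 and 2083 counts, with a mean of 32.0 ± 2.25 TPM. Of the ligands, vegfab (ENSDARG00000034700) was at 27.1 and 21.9 TPM from 473 and 478 counts, with a mean of 24.5 ± 3.67 TPM. The copy vegfaa (ENSDARG00000103542) was at 8.41 TPM (7.23 to 9.73, from 180 counts) and 4.63 TPM (3.85 to 5.52, from 124 counts). The gene vegfab exceeded vegfaa in both libraries. All 10 genes had whole expected counts in both libraries, to the decimals deposited, so none carried a visible fraction of a read shared with another gene.

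By mean level the order was plvapa, slc2a1b, cldn5a, kdrl, plvapb, vegfab, cldn5b, mfsd2aa, vegfaa and slc2a1a. The ranges of both libraries did not overlap between plvapa and slc2a1b, between kdrl and plvapb, or between vegfab and cldn5b. Nor did they overlap between cldn5a and kdrl, but the mean log2 ratio of cldn5a over kdrl, 0.24 ± 0.28, was smaller than its spread, so the order of these neighbours is not settled. The ranges of slc2a1b and cldn5a overlapped, as did those of plvapb and vegfab. From cldn5b down, the range of each gene overlapped that of the next. The order of these last 4 genes is thus not settled either. The highest mean was 18.4 times the lowest.

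Summed over their members, barrier and fenestration genes stood at about the same level. The 5 barrier genes summed to 98.7 and 95.3 TPM in replicates 1 and 2, and the fenestration genes to 94.7 and 103 TPM. The barrier sum was 1.04 times the fenestration sum in replicate 1 and 0.923 times in replicate 2, a mean log2 ratio of -0.03 ± 0.12 (SD, n = 2). The direction thus differed between the libraries, and the difference was smaller than their spread.

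That near equality rested on slc2a1b and cldn5a on the barrier side and on plvapa on the other. The gene plvapa gave 75.9% and 74.5% of the fenestration sum in replicates 1 and 2. Members were left out on the barrier side only. Without cldn5a the barrier sum was 0.607 and 0.589 times the fenestration sum, and without slc2a1a and slc2a1b it was 0.556 and 0.522 times. For cldn5b and mfsd2aa alone, the sums were 11.4 and 19.4 TPM, or 0.121 and 0.187 times the fenestration sum, a mean log2 ratio of -2.73 ± 0.45. As single genes, all 5 barrier genes were below plvapa in both libraries. Against plvapb, 2 were higher in both libraries, slc2a1b and cldn5a, and 3 were lower in both. The median over members in place of the sum put barrier genes lower than fenestration genes, at a log2 ratio of -2.15. Counts without length gave -0.55.

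**Figure D2:**
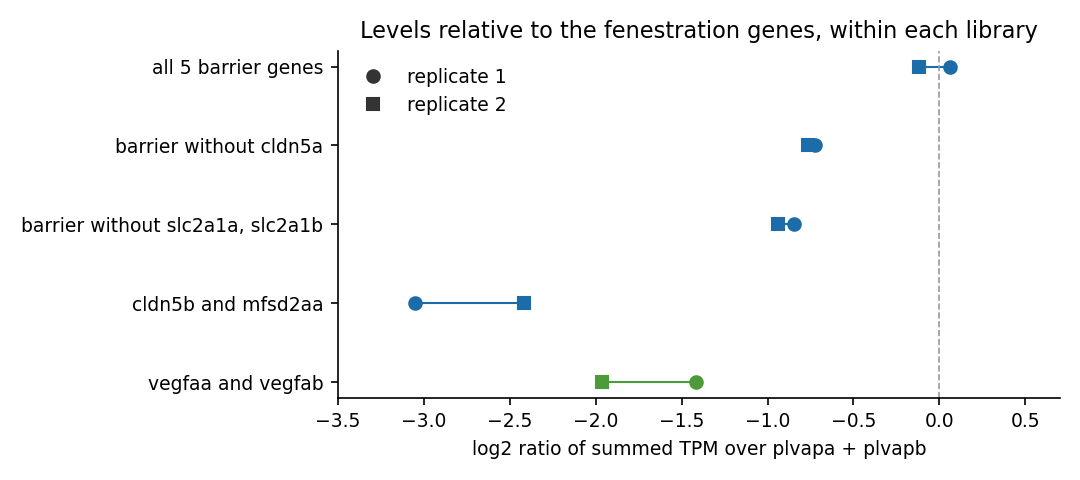
Summed TPM of barrier genes (blue, with 4 choices of members) and of VEGF ligands (green) over the summed TPM of plvapa and plvapb, as log2 ratios within each library. Circles are replicate 1 and squares replicate 2, and the dashed line marks equal sums. Ratios for all 5 barrier genes lie on both sides of it, at 0.06 and -0.12, and those for cldn5b with mfsd2aa lie at -3.05 and -2.42.

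Summed, the VEGF ligands were lower than the fenestration genes. As single genes, vegfab and vegfaa were below plvapa in both libraries, while vegfab at 27.1 and 21.9 TPM overlapped plvapb at 22.8 and 26.3 TPM. The ligand sums were 35.5 and 26.5 TPM in replicates 1 and 2, or 0.375 and 0.257 times the fenestration sum, a mean log2 ratio of -1.69 ± 0.39. The barrier sum was 2.78 and 3.59 times the ligand sum, a mean log2 ratio of 1.66 ± 0.26. Both differences were larger than the spread between the libraries and had one direction in both. The first was not computed without plvapa, which gave 75.9% and 74.5% of the fenestration sum. The second depended on the choice of barrier genes. The sum of cldn5b and mfsd2aa was 0.322 and 0.730 times the ligand sum, below it in both libraries. With medians in place of sums the barrier genes were also below the ligands, at a mean log2 ratio of -0.46.

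Each duplicated pair was unequal. The copy plvapa was 3.16 times plvapb in replicate 1 (95% exact binomial interval from the counts 2.80 to 3.57) and 2.92 times in replicate 2 (2.65 to 3.23). It gave 75.9% and 74.5% of the pair, a share that hardly moved between the libraries. The copy cldn5a was 14.6 times cldn5b (10.3 to 21.2) and 2.38 times (1.97 to 2.89). It led in both libraries, but the intervals of the factor lay apart. The copy slc2a1a was 0.0715 times slc2a1b (0.0510 to 0.0978) and 0.1385 times (0.109 to 0.174), which also lay apart. The copy vegfaa was 0.311 times vegfab (0.260 to 0.370) and 0.212 times (0.172 to 0.258), so that these intervals narrowly failed to meet.

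Relative to kdrl, a measure chosen after the values were seen, the fenestration genes moved little between the libraries. The sum of plvapa and plvapb was 3.11 times kdrl in replicate 1 and 3.07 times in replicate 2, a mean log2 ratio of 1.63 ± 0.01. With CPM, which does not correct for length, the mean log2 ratio was 0.17. The log2 ratio to kdrl moved between the libraries by 0.05 for plvapa and by 0.06 for plvapb. The other 7 members moved by more, from 0.38 for slc2a1b and 0.40 for cldn5a to 0.97 for mfsd2aa, 1.00 for vegfaa and 2.21 for cldn5b. A move of at most 0.1 was found for 2 of 9 members, plvapa and plvapb. Of the 7482 genes other than kdrl with counts in both libraries and a mean of at least 10 TPM, 13.8% moved so little. The shares are not like for like, since cldn5b, mfsd2aa, vegfaa and slc2a1a lay below 10 TPM by their means. The list called pan-endothelial also held genes that do not mark all endothelium or endothelium alone. Of its 25 genes with a mean of at least 1 TPM, 3 moved by at most 0.1, namely clec14a, aqp1a.1 and fli1b. The median move was 0.27. A small move is therefore not particular to the fenestration genes. The gene cdh5, which encodes the cadherin of endothelial junctions, was at 0.199 and 0.218 times kdrl.

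**Figure D3:**
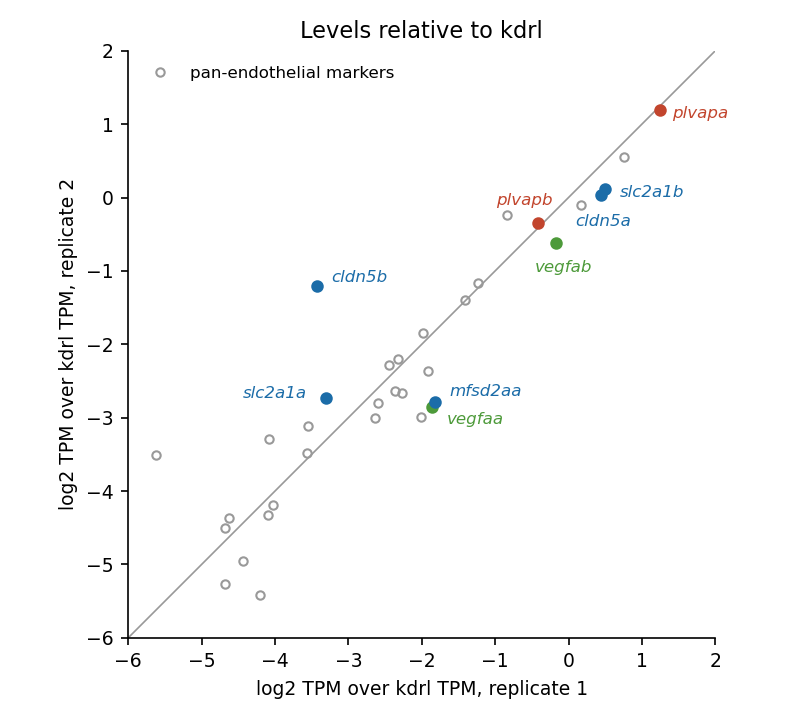
Log2 of TPM over the TPM of kdrl in replicate 1 (x axis) and replicate 2 (y axis), with the line of equality. Filled points are barrier genes (blue), fenestration genes (red) and VEGF ligands (green), and open points are the 25 pan-endothelial markers. The points of plvapa and plvapb lie close to the line, while cldn5b lies above it and mfsd2aa and vegfaa lie below it.

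Between the libraries, ratios were taken as replicate 1 over replicate 2 on the log2(TPM + 1) scale, less the median of genes with a mean of at least 1 TPM, which was 0.25. One gene, cldn5b, was at least 2-fold higher in replicate 2, at a log2 ratio of -2.27, against 3.56% of all genes compared. With DESeq2 size factors slc2a1a also passed 2-fold, at -1.01. None was at least 2-fold higher in replicate 1, against 5.22%. The genes plvapa, plvapb and kdrl stood at -0.35, -0.45 and -0.39. All 3 were thus higher in replicate 2 than the median gene, as were 22 of 25 pan-endothelial markers, whose median was -0.24. The same held for 9 of 11 choroid plexus epithelium markers, 11 of 15 mural markers and 7 of 8 macrophage markers. Medians of these 3 lists were -0.34, -0.33 and -0.34. The mural list also held the growth factor genes pdgfba at 0.53 and pdgfbb at -0.57, which are not markers of mural cells. Pineal and neuron markers lay toward replicate 1 for 10 of 10 and 6 of 7 genes. The direction was thus not particular to endothelial genes. The abundant barrier genes cldn5a and slc2a1b stood at -0.00 and -0.02 and vegfab at 0.04, near the median gene. Toward replicate 1 lay mfsd2aa at 0.46 and vegfaa at 0.49, and toward replicate 2 lay slc2a1a at -0.82.

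**Figure D4:**
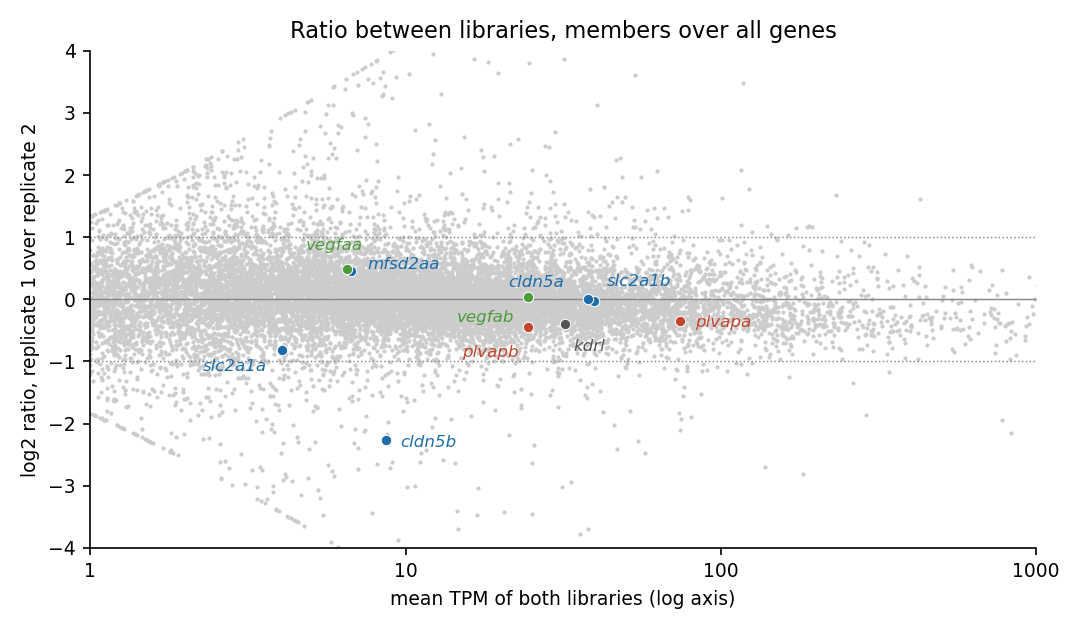
Log2 ratio of replicate 1 over replicate 2 on the TPM + 1 scale, less the median, against mean TPM on a log axis. Grey points are genes with a mean of at least 1 TPM, of which 14936 are drawn and 189 lie outside the axes, and dotted lines mark a 2-fold difference. Of the coloured members, cldn5b at -2.27 is the one beyond a dotted line.

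Counts without length gave a smaller difference for cldn5b. In CPM, counts scaled to library size, it was at 2.99 and 10.5, a value 3.51 times as high in replicate 2 (95% exact interval 2.41 to 5.24), while its TPM was 5.13 times as high. It has 2 annotated transcripts, and the effective length deposited for the gene was 1384 bases in replicate 1 and 865 bases in replicate 2. The red cell genes hbba1, a sum over 2 gene entries, and hbaa1 were also higher in replicate 2, at log2 ratios of -2.02 and -2.15. The chemokine gene cxcl12b, noticed after its values were seen, stood at 9.15 and 42.1 TPM. Sums of the pineal and neuron markers were higher in replicate 1, in the direction of mfsd2aa and vegfaa. The part of these other cell types in the differences of cldn5b, mfsd2aa and vegfaa was not tested.

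The rest of the VEGF system was led by co-receptors. The neuropilins bind VEGF and semaphorins beside the main receptors. Of these, nrp1a was at 94.2 and 59.7 TPM in replicates 1 and 2, nrp2b at 74.3 and 62.65, nrp1b at 48.0 and 29.7, and nrp2a at 4.49 and 5.12 TPM. Neuropilins are also made by neurons and mesenchymal cells. Among receptors besides kdrl, flt1, whose product traps ligand, was at 15.65 and 19.1 TPM and kdr, the other copy of the VEGF receptor 2 type, at 12.8 and 15.7 TPM. The lymphatic and venous receptor flt4 was at 2.67 and 2.69 TPM. Like kdrl, flt1 and kdr were higher in replicate 2, at log2 ratios of -0.53 each.

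Other ligands were lower than vegfab in both libraries. The ligand of flt4, vegfc, was at 11.5 and 9.01 TPM. It overlapped neither vegfab nor the range of vegfaa, 4.63 to 8.41 TPM. The placental growth factor copy pgfb was at 4.74 and 5.26 TPM, vegfba at 1.54 and 0.57, and vegfd at 0.94 and 0.33 TPM from 5 and 2 counts. The gene vegfbb had no counts, where 3 counts would be 2.67 and 2.25 TPM. Of 12 matched genes in this list of other ligands and receptors, 9 were detected and 5 stood at 10 TPM or more in both libraries. Their median level was 7.63 TPM. Of all genes, 54.6% were detected and 26.3% stood at 10 TPM or more.

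**Figure D5:**
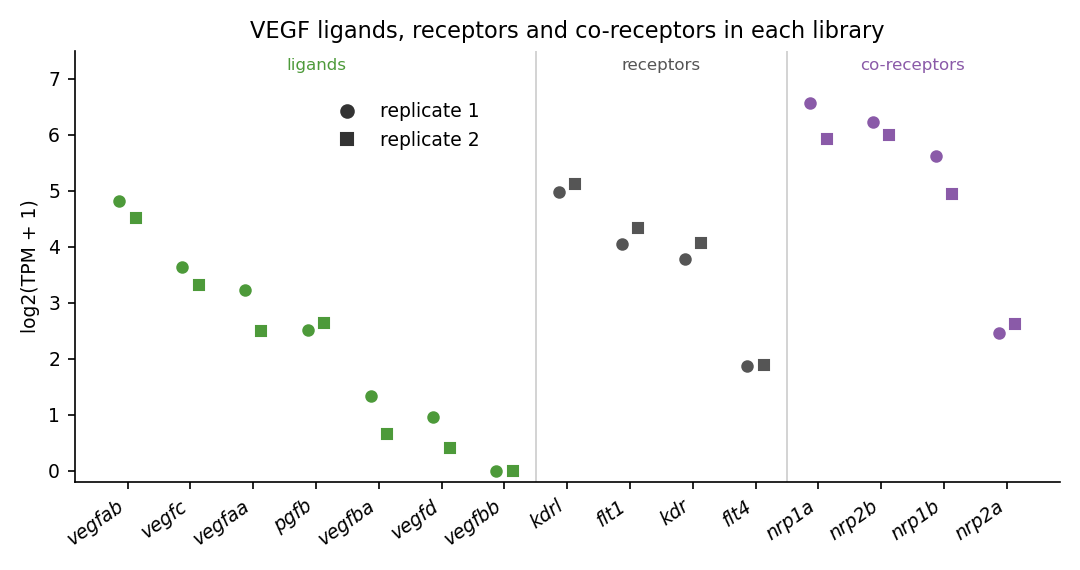
Level of VEGF ligands (green), receptors (grey) and neuropilin co-receptors (purple) in replicate 1 (circles) and replicate 2 (squares), as log2(TPM + 1). Among ligands vegfab is the highest in both libraries, and the co-receptors nrp1a and nrp2b lie above all receptors.

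The hypoxia response drives VEGF transcription. The list of 13 genes holds both genes that act in it and genes that restrain it. Of the 13, 11 were detected and 7 stood at 10 TPM or more, against 54.6% and 26.3% of all genes. The 4 highest were hif1al at 124 and 99.7 TPM, the oxygen-regulated subunits hif1ab at 98.2 and 100.4 and epas1a at 82.97 and 76.1, and their partner arnt2 at 34.3 and 21.5 TPM. Of 12 with a mean of at least 1 TPM, 3 were at least 2-fold higher in replicate 1 and 1 in replicate 2. For all genes with that mean, the shares were 5.22% and 3.56%. Those higher in replicate 1 were egln1a, egln2 and egln3, named after their values were seen, whose products mark the oxygen-regulated subunits for decay. They stood at 4.07, 11.2 and 9.61 TPM in replicate 1 and at 0.83, 3.09 and 2.76 TPM in replicate 2. These 3 genes lay in the same direction as vegfaa. The gene at least 2-fold higher in replicate 2 was vhll, also named after its values were seen, at 5.24 and 11.6 TPM. The subunits hif1ab and epas1a stood at log2 ratios of -0.28 and -0.13, and the ligand vegfab at 0.04. Of the 12 genes, 7 lay toward replicate 1 and 5 toward replicate 2. A link between this list and vegfaa was not tested. The entry egln1b is a sum over 2 gene entries whose counts were not whole.

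Wnt signalling through Wnt7 ligands, the receptor fzd4 and the cofactors reck and adgra2 induces the barrier state in brain vessels of mice and zebrafish. The ligands were near the limit of detection. The genes wnt7aa, wnt7ba and wnt7bb had 8, 11 and 6 counts in replicate 1 and 4, 4 and 8 in replicate 2, or at most 1.63 TPM. The Norrin gene ndp, another ligand of fzd4, had 1 and 4 counts. Cofactor levels were uneven, with reck at 25.7 and 21.2 TPM and adgra2 at 1.01 and 0.83 TPM.

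Receptors and readouts of the pathway spanned a wide range of levels. The receptor fzd4 was at 7.71 and 3.85 TPM, its partner tspan12 at 1.62 and 0.96, and the Wnt co-receptors lrp5 and lrp6 at 15.5 and 7.96 and at 26.8 and 19.5 TPM. The pathway targets axin2 and nkd1 were at 27.0 and 23.3 and at 12.05 and 7.64 TPM, while apcdd1l was at 0.73 and 0.98 TPM. Of the nuclear effectors, lef1 was at 21.6 and 14.7 TPM, tcf7l2 at 17.4 and 11.4 and tcf7 at 2.11 and 1.66 TPM. These genes act in many cell types. The vessel transcription factors foxf2a, foxf2b and sox17 were at 0.59, 1.46 and 2.03 TPM in replicate 1 and at 0.19, 1.98 and 1.94 TPM in replicate 2. Counts in replicates 1 and 2 were few for foxf2a, at 10 and 4, and for tcf7, at 14 and 12. The receptor gene unc5b was at 15.2 and 4.49 TPM. Its log2 ratio between the libraries was 1.31, toward replicate 1, while 22 of 25 pan-endothelial markers lay toward replicate 2. Of 21 matched genes, 13 were detected in both libraries and 6 stood at 10 TPM or more, against 54.6% and 26.3% of all genes. The list median was 1.99 TPM, below that of all genes at 2.53 TPM, and with at least 3 counts in both libraries as the rule 20 genes were detected.

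In both libraries, 54.6%, 26.3% and 3.12% of all genes reached 1, 10 and 100 TPM. Other transporters of barrier vessels, also known from epithelia, were detected for 18 of 23 matched genes, with a median of 16.6 TPM. Of the 23, 14 stood at 10 TPM or more and 2 at 100 or more. The 4 highest were the amino acid carrier chain slc3a2b at 604 and 529 TPM, the lipoprotein receptor lrp1aa at 439.3 and 438.9, the efflux pump abcc4 at 120.2 and 95.96 and the amino acid carrier slc7a5 at 117 and 73.65 TPM. The second copy of the lysophospholipid carrier, mfsd2ab, named after its values were seen, was at 20.3 and 16.6 TPM, above mfsd2aa in both libraries. Tight junction partners were detected for 15 of 21 genes, 6 of them at 10 TPM or more, with a median of 5.36 TPM. The scaffold genes tjp2b and tjp1a were at 38.0 and 43.1 and at 41.8 and 31.4 TPM, and the adhesion genes jam3b and jam2a at 37.6 and 33.8 and at 24.8 and 36.6 TPM. The occludin copies oclna and oclnb, seen to be near 0, had 0 counts in replicate 1 and 2 and 1 counts in replicate 2.

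Caveolae are vesicles that carry cargo across permeable endothelium, and their genes had a median of 10.8 TPM. Of 15 matched genes, 10 were detected and 6 stood at 10 TPM or more, against 54.6% and 26.3% of all genes. The coat gene cavin1b was at 149.7 and 90.3 TPM, cav2 at 62.15 and 48.4, cav1 at 35.8 and 46.3 and cavin2b at 31.4 and 25.2 TPM. These coats are found in fibroblasts and muscle too. Pan-endothelial markers, a list with the limits given above, had a median of 3.24 TPM. Of 29, 22 were detected and 5 stood at 10 TPM or more, against 54.6% and 26.3% of all genes. The highest were the sphingosine receptor s1pr1 at 51.5 and 49.2 TPM, podxl at 34.1 and 31.3, ramp2 at 17.1 and 28.5 and the water channel aqp1a.1 at 13.0 and 14.9 TPM. Which cells of the whole tissue made the RNA of these genes was not tested. The gene cdh5 was at 6.07 and 7.34 TPM, so plvapa was the more abundant in both libraries.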

How the data were processed

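RNA from 2 pooled samples was sequenced. The submitters' processing notes name STAR, RSEM 1.3.3 and build GRCz11, with no annotation. For each gene and library the deposited files hold expected counts, TPM, FPKM and lengths, in columns named as RSEM writes them. The authors' table of the whole series gave gene names for 20973 genes, and its TPM column matched the average of the 2 libraries to within 0.005. Of 242 symbols in 18 lists, 235 matched a gene, 1 of them through RefSeq synonyms (GRCz12tu, names only).

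Levels are mean TPM ± SD (n = 2). With 1 group no test between groups exists and no p-value is given, and whether the pools differ technically or biologically was not tested. Poisson and exact binomial 95% intervals are taken from the counts and cover counting error only. No molecular identifiers are named in the labels, so amplified copies of 1 molecule cannot be told apart and the intervals may be too narrow. Ratios within a library use no pseudocount. A pseudocount of 1 was used between libraries. For scaling alternatives, expected counts were rounded to whole numbers and used with edgeR 4.0.16 (TMM) and DESeq2 1.42.0 (size factors). Calculations used Python 3.11.15 and scipy 1.17.1 and were tested on simulated data.

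Members and lists were chosen with earlier results of these data known. All members, all matched genes of the VEGF and Wnt lists and the 4 most abundant genes of each other list are named, except 1 gene of the Wnt list that is not reported here. Other genes are said to be named after their values were seen, as were ttr, clec14a, fli1b, cdh5, pdgfba and pdgfbb. With 2 libraries of 1 group, no search over all genes for a like pattern was made. The genes cxcl12b, egln1a, egln2 and egln3 were set beside members after their values were seen. Protein and promoter sequences were not used here.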

Additional observations from a re-analysis of the deposited data

How the results depend on the processing

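The ratio of VEGF ligands over fenestration genes kept its direction in all alternatives tried, between -1.96 and -1.42 (log2) without either replicate. The median and the 1 TPM filter could not change it, since each side has 2 genes and all members passed. No alternative for this ratio or for barrier over fenestration left out plvapa, which gave 75.9% and 74.5% of the fenestration sum. Barrier over fenestration (-0.03) was between -0.12 and 0.06 without either replicate. It was -0.55 with CPM, -2.15 with medians, -0.74 without cldn5a, -0.89 without slc2a1a and slc2a1b and -2.73 with cldn5b and mfsd2aa only. Barrier over VEGF ligands (1.66) was between 1.48 and 1.85 without either replicate, 1.12 with CPM, 0.95 without cldn5a and 0.80 without slc2a1a and slc2a1b. It reversed to -0.46 with medians and to -1.04 with cldn5b and mfsd2aa only, as fewer or other genes then set the value. Fenestration over kdrl (1.63) was 0.17 with CPM, which does not correct for length, 1.61 with a pseudocount of 1 and between 1.62 and 1.64 without either replicate. These alternatives for kdrl were chosen after seeing the data. The copy ratio of plvapa over plvapb (1.60) was 1.95 with CPM and between 1.55 and 1.66 without either replicate. That of cldn5a over cldn5b was between 1.25 and 3.87 without either replicate, and those of slc2a1 and vegfa kept their direction. The ratio between libraries of cldn5b was -1.67 with TMM factors and -1.97 with DESeq2 size factors. Rescaling TPM without the 97 mitochondrially encoded and ribosomal protein genes multiplied every level by 1.39 and 1.54 in replicates 1 and 2, and levels in deposited FPKM were lower, as for plvapa at 59.6 against 74.4 TPM. With at least 3 counts in both libraries as the rule, 10 neuron markers were detected in place of 3. No paired analysis was possible because both libraries form 1 group. Depth limits the Wnt7 ligands, ndp, vegfd, foxf2a, angpt1, angpt2a and angpt2b, at 11 counts or fewer.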

Other observations

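Genes of other vessel signals had a median of 8.13 TPM. Of 28 matched genes, 21 were detected and 10 stood at 10 TPM or more in both libraries, against 54.6% and 26.3% of all genes. The 4 highest were the chemokine scavenger ackr3b at 33.8 and 21.2 TPM in replicates 1 and 2, the chemokine cxcl12b at 9.15 and 42.1, the guidance factor sema3aa at 21.8 and 27.4 and the endothelial receptor of the BMP type acvrl1 at 20.2 and 28.0 TPM. The angiopoietin genes angpt1, angpt2a and angpt2b had 10, 2 and 9 counts in replicate 1 and 5, 7 and 7 in replicate 2. The choice of these 3 came after seeing their values, as did that of angpt4 at 8.86 and 7.40 TPM.

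Mural markers, mostly of the pericytes and smooth muscle around vessels, had a median of 6.13 TPM. The list also held the growth factor genes pdgfba and pdgfbb, which are not markers of those cells. Of 16 matched genes, 15 were detected and 7 stood at 10 TPM or more, against 54.6% and 26.3% of all genes. The receptor gene pdgfrb was at 67.9 and 64.6 TPM, notch3 at 36.5 and 20.8, the smooth muscle actin acta2 at 27.35 and 28.8 and cd248a at 21.0 and 24.2 TPM. Macrophage markers were detected for 8 of 8 genes, against 54.6% of all genes, with a median of 12.0 TPM. They were led by lgals3a at 182 and 197.5 TPM, cd74a at 133 and 197, apoeb at 170 and 61.7 and lcp1 at 10.1 and 17.0 TPM. The lowest, named after their values were seen, were spi1b at 3.34 and 3.07 TPM and mpeg1.1 at 2.31 and 3.17 TPM. Epithelial markers were led by rbp4 at 32798 and 35995 TPM, clic6 at 1426 and 1513, atp1a1a.1 at 678 and 1058 and krt8 at 805 and 870 TPM.

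Among the lists of other tissues, neuron markers were led by stmn1b at 87.7 and 53.5 TPM, map2 at 29.4 and 31.8, snap25b at 15.9 and 3.84 and syt1a at 8.74 and 0.46 TPM. Pineal markers were led by rcvrnb at 862 and 5.50 TPM, pde6ha at 811.5 and 13.0, exorh at 656 and 11.7 and gngt1 at 351 and 2.20 TPM. Red cell markers were led by hbba1 at 1322 and 4496 TPM, hbaa1 at 353 and 1319, hbba2 at 44.2 and 52.3 and hbaa2 at 28.6 and 29.6 TPM. The entry hbba1 is a sum over 2 gene entries.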
